A study of Mus musculus with 9 samples.

Results

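The genes that encode potassium channel subunits were examined in RNA-seq of whole mouse eyeballs. Members were all rows of biotype protein_coding whose symbol starts with Kcn, which gave 85 of the 22587 genes in the tables. A further 2 Kcn rows, the non-coding RNAs Kcnq1ot1 and Kcnmb4os2, were outside the rule. The T.chuii group received scopolamine by intraperitoneal injection and 300 mg/kg of T. chuii, the green microalga Tetraselmis chuii. The DES group received the same drug and water, and stands for dry eye syndrome. The CON group received water and no injection, so that an effect of the drug and one of being injected cannot be told apart in a comparison with CON. Every animal was a wild-type female of BALB/C, an inbred albino strain, treated for 2 weeks from 6 weeks of age, with a labelled tissue age of postnatal day 56. There were 3 libraries per group, and 15 mice were obtained in all. The labels do not tie each library to its own animal, so the p-values reflect only how these libraries vary, which may be technical. In a bulk sample of a whole organ, fewer cells of a type and less RNA per cell cannot be told apart.

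Potassium channels let potassium ions leave or enter the cell and set the resting voltage and the shape of electrical signals. Most voltage-gated pores are built from 4 subunits, which may be of a single kind or mixed with modifier subunits that form no pore alone, and many carry further auxiliary proteins. In the eye they are known for the resting current of photoreceptors, the potassium uptake of Müller glia, the transport of the retinal pigment epithelium, and the tone of muscle in vessels and around the globe. The 85 members comprised 27 voltage-gated pore subunits, 10 silent modifiers, 8 calcium- or sodium-activated channels, 13 inward rectifiers, 10 channels of the Kcnk family, whose subunits carry a pair of pore domains each, and 17 auxiliary proteins.

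Library totals lay between 39.1 and 64.6 M reads, and the members held 0.0961% to 0.194% of them. The lowest count of a member in any library was 4 reads. The libraries T.chuii 1, DES 1 and CON 2 stood apart. Rod markers (7 genes, among them Gnat1) held 0.761%, 1.38% and 1.37% of their reads, against 2.91% to 4.01% in the other 6 libraries. Reads of corneal epithelium markers divided by reads of rod markers gave 5.11, 3.26 and 4.9 in these 3 libraries, against 0.38 to 1.03 in the other 6. Each group held 1 of the 3. Retinal, corneal and pigment epithelial markers were present in every library. Lens markers held 2.37%, 5.46% and 1.16% of reads in T.chuii, 3.56%, 0.0381% and 2.6% in DES and 0.0194% to 0.0284% in CON. All 85 members were matched to the RefSeq table of GRCm38.p6, the assembly also named mm10. The spans of 39 overlapped another annotated gene, for which reads cannot be told apart where strand was not used.

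Promoter sequences of 3 members are shown because these genes stand for the opposite patterns across libraries described below, and because 1 of them carries the core letters bound by CRX, a transcription factor of photoreceptors. Kcne2 and Kcnj9 were low in the 3 libraries that were poor in rod reads, and Kcnk1 was high there. Each window runs from 250 bases before to 50 bases after an annotated start in RefSeq (GRCm38.p6) and is written 5′ to 3′ on the gene's strand. Capitals mark TAATCC or its reverse complement GGATTA, searched on both strands.
Kcne2, chr16:92292139-92292438, plus strand: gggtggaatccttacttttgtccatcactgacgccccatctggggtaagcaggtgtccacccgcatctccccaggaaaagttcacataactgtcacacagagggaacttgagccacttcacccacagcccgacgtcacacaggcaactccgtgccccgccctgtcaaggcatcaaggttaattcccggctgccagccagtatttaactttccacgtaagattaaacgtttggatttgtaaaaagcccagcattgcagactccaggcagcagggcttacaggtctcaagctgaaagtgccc
Kcnj9, chr1:172329273-172329572, minus strand: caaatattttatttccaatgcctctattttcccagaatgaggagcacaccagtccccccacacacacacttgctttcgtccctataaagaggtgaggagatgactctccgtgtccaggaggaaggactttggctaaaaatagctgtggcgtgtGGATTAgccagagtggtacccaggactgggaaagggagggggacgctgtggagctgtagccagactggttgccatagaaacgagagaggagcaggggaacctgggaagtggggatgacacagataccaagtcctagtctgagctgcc
Kcnk1, chr8:125994852-125995151, plus strand: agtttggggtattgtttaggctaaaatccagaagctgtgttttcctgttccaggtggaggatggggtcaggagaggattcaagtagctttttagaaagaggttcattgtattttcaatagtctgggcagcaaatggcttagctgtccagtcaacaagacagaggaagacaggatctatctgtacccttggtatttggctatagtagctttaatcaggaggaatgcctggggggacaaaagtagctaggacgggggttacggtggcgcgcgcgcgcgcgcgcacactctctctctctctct
The letters were present in 2320 of 32851 promoters of that length in the table, or 7.06%. Among members low in the 3 libraries they were present in 1 of 30 promoters, that of Kcnj9. Among members high there they were in 0 of 6, and among the rest in 2 of 49, those of Kcng4 and Kcnrg. A match is a run of letters and not a bound site, and its absence says only that these letters are not in this window. The tables hold promoters for 61 of the 85 members.

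In level, measured as the authors' FPKM (fragments per kilobase of transcript and per library depth), the members spanned over 3 orders of magnitude. Averaged over the 9 libraries, 9 members reached 10 FPKM or more, 36 lay between 1 and 10 FPKM, and 40 lay under 1 FPKM. The order began with Kcnj13 at 78.5 FPKM, Kcnj14 at 65.8, Kcnk1 at 32.7, Kcne2 at 25.7 and Kcnv2 at 18.8. Further members above 10 FPKM were Kcnma1 at 13.0, Kcnip4 at 12.8 and Kcnip1 at 10.8 FPKM. These 3 overlapped in range, and the lowest level was that of Kcng1, a silent modifier, at 0.0525 FPKM. Inward rectifiers held 35.4% to 51.0% of the members' summed FPKM in the 9 libraries, and auxiliary subunits 13.0% to 27.4%.

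**Figure D1:**
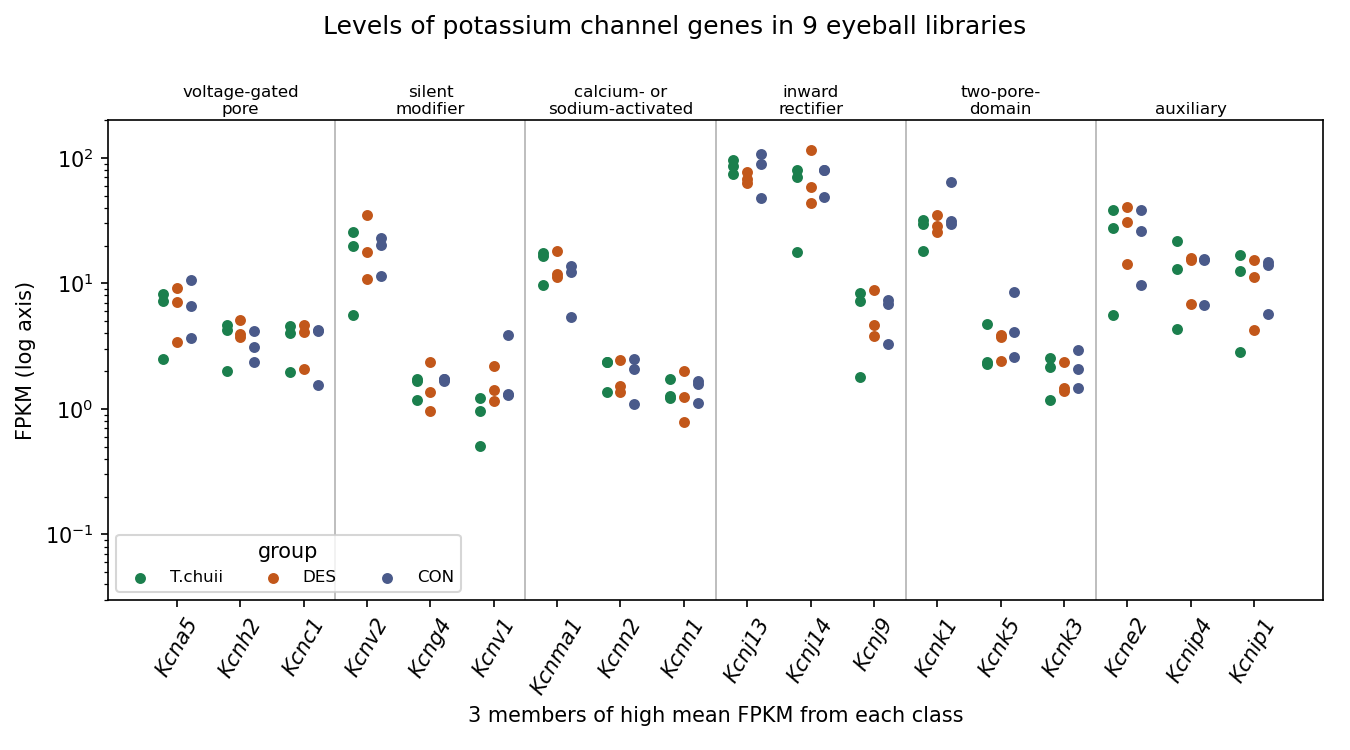
Level of 3 members of high mean FPKM from each class, on a log axis, with 1 point per library (T.chuii, DES and CON from left to right for each gene). Kcnj13 lay between 47.6 and 107 FPKM, whereas Kcnj14, Kcnv2 and Kcne2 had 1 library per group well below the others.

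Among inward rectifiers, which pass potassium more readily into than out of the cell, Kcnj13 encodes Kir7.1, known from the apical membrane of the retinal pigment epithelium, and lies at chr1:87384577-87394729 (mm10), overlapping Gigyf2. Its level was 95.3, 73.8 and 86.7 FPKM in T.chuii, 67.9, 63.5 and 76.5 FPKM in DES and 107, 47.6 and 88.7 FPKM in CON. It was the highest member in 7 of the 9 libraries, and the groups overlapped. The log2 change was 0.31 ± 0.28 (SE) in T.chuii vs DES and -0.09 ± 0.28 in DES vs CON, with adjusted p = 1.0 by limma-voom for each, and these changes were 0.19 and -0.38 without the 3 libraries that stood apart. Markers of pigment epithelium held 0.172%, 0.12% and 0.171% of reads in T.chuii, 0.0423%, 0.105% and 0.187% in DES and 0.21%, 0.0232% and 0.142% in CON. Both Kcnj13 and these markers were lowest in CON 2, but the next lowest library was DES 2 for Kcnj13 and DES 1 for the markers. The part of pigment epithelium content was not tested.

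Kcnj14 encodes Kir2.4. Its level was 17.9, 70.9 and 79.2 FPKM in T.chuii, 43.3, 115 and 58.2 FPKM in DES and 80.1, 48.3 and 79.7 FPKM in CON. In each group the lowest value was that of the library poor in rod reads, and Kcnj14 exceeded Kcnj13 in DES 2 and CON 2. Kcnj10 and Kcnj16 encode Kir4.1 and Kir5.1, the pair by which Müller glia take up potassium. Kcnj10 was at 7.2, 15.4 and 17.6 CPM (read count relative to scaled library size) in T.chuii, 8.2, 14.8 and 9.86 CPM in DES and 16.8, 8.83 and 12.4 CPM in CON. Müller glia markers held 0.171%, 0.244% and 0.231% of reads in T.chuii, 0.2%, 0.215% and 0.177% in DES and 0.207%, 0.206% and 0.213% in CON. Within T.chuii both these markers and Kcnj10 were lowest in T.chuii 1. Within DES the markers were lowest in DES 3 and Kcnj10 in DES 1. Within CON the markers hardly differed, while Kcnj10 was lowest in CON 2. The part of Müller glia content was not tested. Kcnj9, for Kir3.3 of the channels gated by G proteins, lies 11.9 kb from Kcnj10 and had the same libraries low.

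Among the subunits of voltage-gated channels, the silent modifier Kcnv2 encodes Kv8.2, which joins pore-forming subunits in the inner segments of photoreceptors. Kcnv2 was at 32.8, 109 and 126 CPM in T.chuii, 61, 161 and 105 CPM in DES and 112, 65.3 and 98.4 CPM in CON. It was lowest within each group in T.chuii 1, DES 1 and CON 2, and the spread within a group was larger than the difference between groups. Kcna5, for Kv1.5, averaged 6.5 FPKM among pore subunits, and Kcnh2, for the ERG channel, 3.7 FPKM.

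Kcnma1 encodes the large-conductance calcium-activated channel. It was at 97.7, 178 and 159 CPM in T.chuii, 129, 164 and 112 CPM in DES and 132, 63 and 134 CPM in CON. Its neighbours in the class, Kcnn2 and Kcnn1, encode channels of small conductance and averaged 1.89 and 1.4 FPKM. Kcnn1 was the steadiest of all members, the highest library being 1.41-fold above the lowest.

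Among auxiliary genes, Kcne2 encodes a small membrane protein that joins several voltage-gated pores. It was at 11.1, 51.7 and 64.3 CPM in T.chuii, 27, 62.9 and 61.3 CPM in DES and 42.3, 18.8 and 64 CPM in CON. Kcnip4 and Kcnip1 encode calcium-binding partners of Kv4 pores and showed the same low libraries, with Kcnip1 at 8.13 CPM in T.chuii 1, against 31.7 and 36.7 CPM in the other 2 T.chuii libraries. The Kcnk family gives leak currents that set the resting voltage. Kcnk1, for TWIK-1, ran the other way, at 85.7, 47.7 and 68.1 CPM in T.chuii, 89.7, 55.3 and 78.9 CPM in DES and 65.8, 169 and 71.6 CPM in CON. Its highest value in each group was that of the library poor in rod reads. Kcnk5, for TASK-2, reached 18.7 CPM in T.chuii 1, 14.8 in DES 1 and 32.4 in CON 2, against 7.89 to 13.4 CPM in the other 6 libraries.

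The members varied between libraries, within groups as well as across them. The ratio of the highest to the lowest of all 9 libraries in CPM had a median of 3.46 over the 85 members and ran from 1.41 to 24.5. This ratio does not separate spread within groups from differences between them. It was over 2 in 78 members and over 5 in 22. In 29 of the 85 members, or 34.1%, T.chuii 1, DES 1 and CON 2 all lay below the other 6 libraries, where 13.8% of all genes tested did so. In 7 members, or 8.24%, the 3 lay above the other 6, against 13.1% of all genes tested. The low set held 13 of 27 voltage-gated pores (among them Kcna3, Kcna5, Kcnb2, Kcnd2 and Kcnh6), 9 of 17 auxiliary genes (Kcnab1, Kcnab2, Kcnab3, Kcnip1, Kcnip2, Kcnip4, Kcnmb2, Kcnmb4 and Kcne2) and 4 of 13 inward rectifiers (Kcnj3, Kcnj9, Kcnj10 and Kcnj14). It held 2 of 10 Kcnk genes, 1 of 10 silent modifiers and 0 of 8 calcium- or sodium-activated channels. The high set was Kcnk1, Kcnk5, Kcnk6, Kcne4, Kcnv1, Kcng3 and Kcnq5. These counts describe 3 libraries that were picked for their rod and corneal reads, and no test was made of them.

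Counting within groups reads the same values again, since every member of the low set is lowest in these libraries by construction. T.chuii 1 was the lowest T.chuii library for 59 of 85 members (69.4%), DES 1 the lowest DES library for 44 (51.8%) and CON 2 the lowest CON library for 59 (69.4%). Over all genes tested these shares were 42.2%, 31.4% and 41.9%. The part of rod, corneal or other cell content in these values was not tested.

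**Figure D2:**
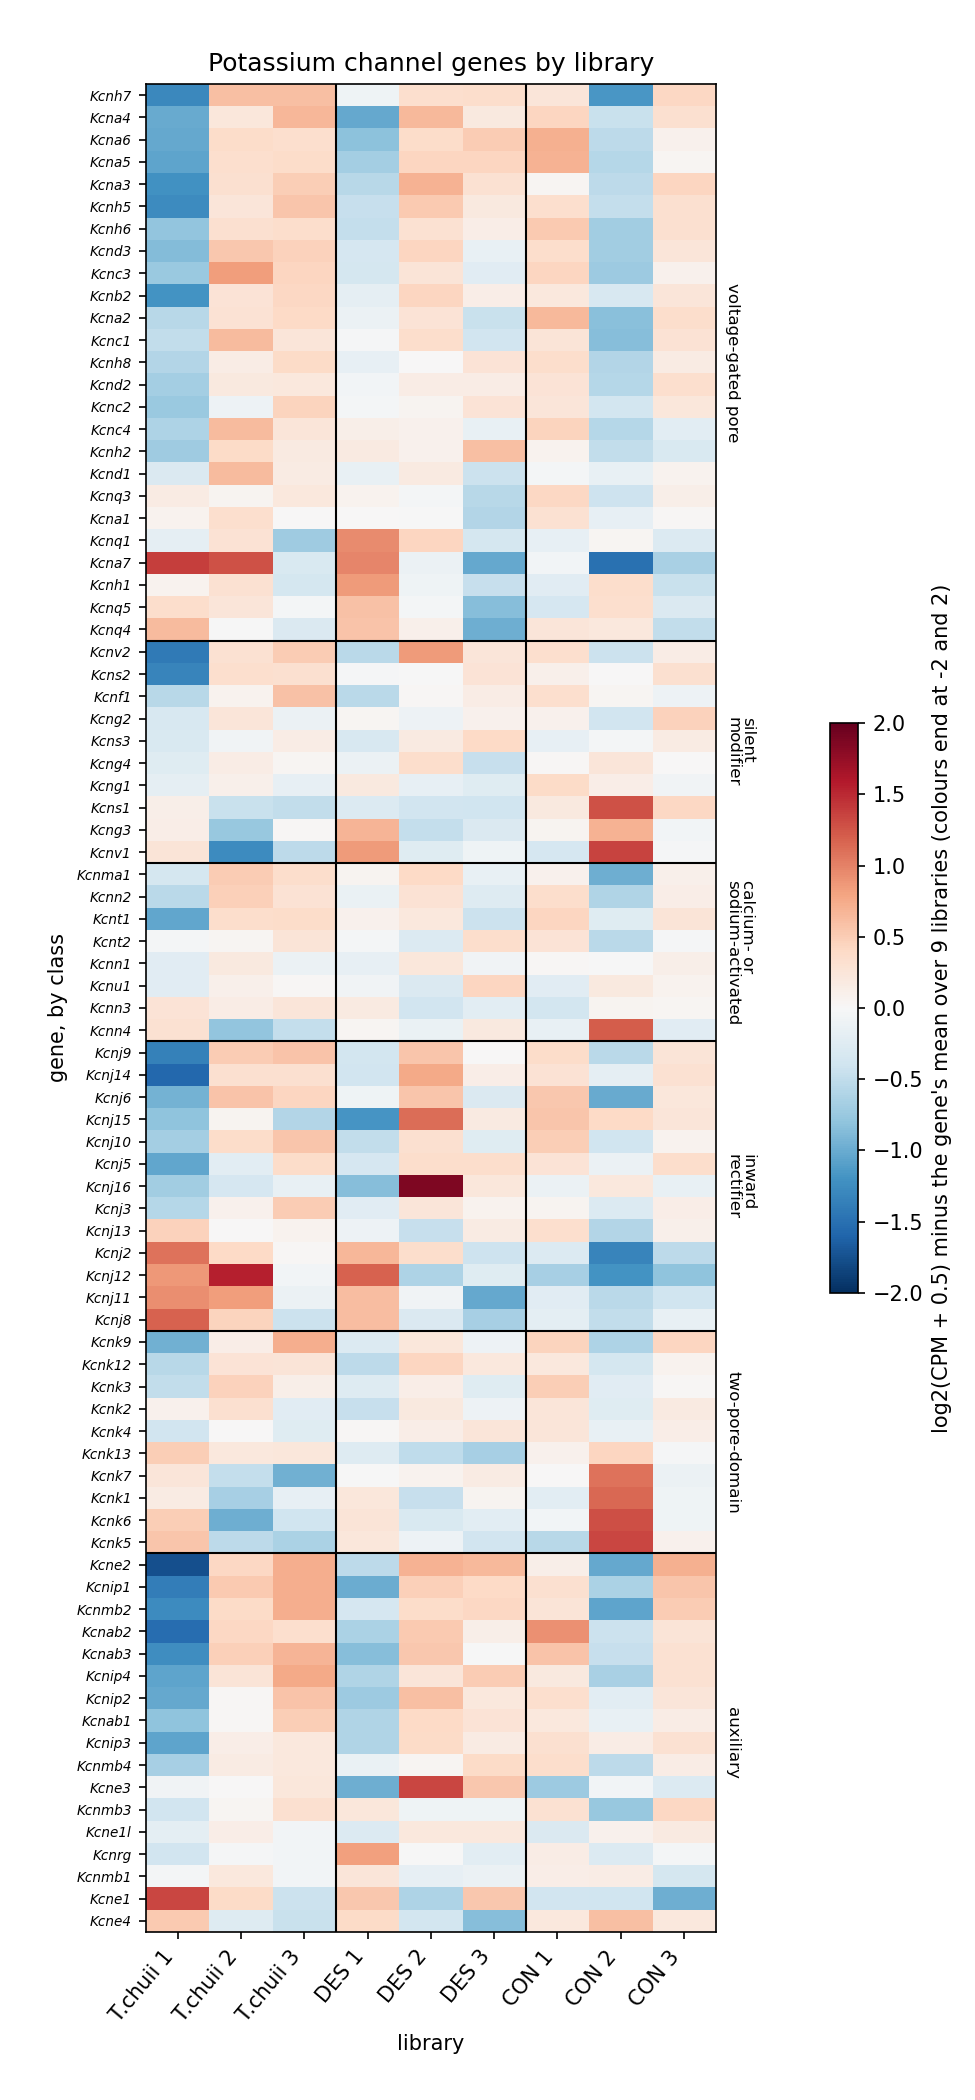
83 of the 85 members (rows, by class) in each of the 9 libraries (columns), as log2(CPM + 0.5) minus the gene's mean. Blue columns are seen in T.chuii 1 and, more weakly, in DES 1 and CON 2, most of all among voltage-gated and auxiliary genes, and Kcnk1, Kcnk5, Kcnk6, Kcnk7 and Kcns1 are red in CON 2.

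**Figure D3:**
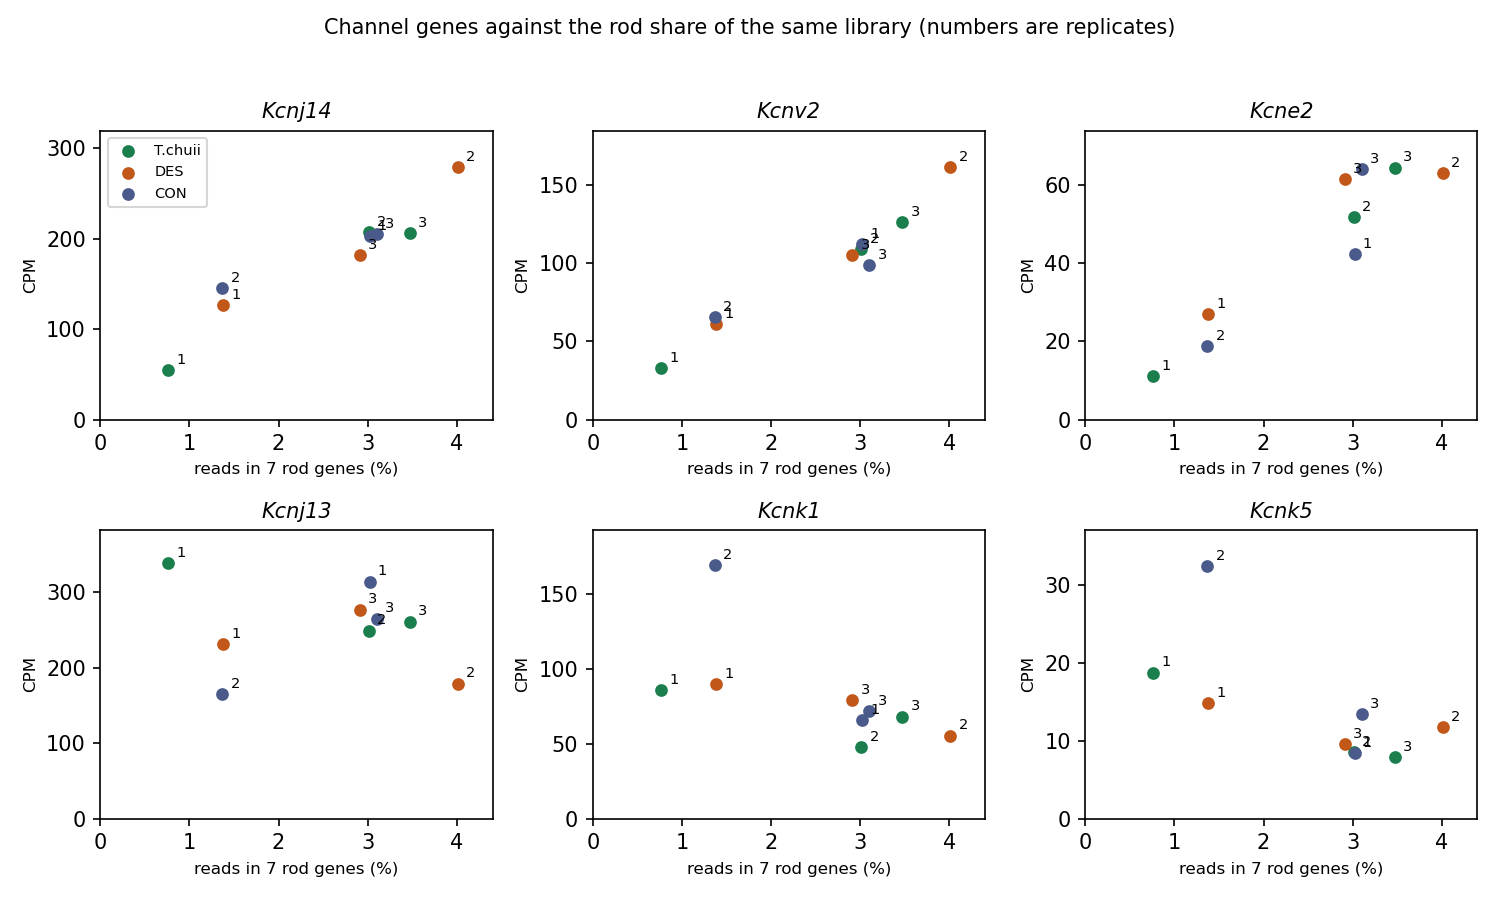
CPM of 6 members against the percentage of reads in 7 rod marker genes, 1 point per library with its replicate number. Kcnj14, Kcnv2 and Kcne2 were lowest in the 3 libraries under 1.5% rod reads, Kcnk1 and Kcnk5 were highest there, and Kcnj13 showed no such order.

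T.chuii vs DES asks what the alga changed in injected mice. No member changed past an adjusted p of 0.05 by limma-voom, and of all 21287 genes tested 0.0% passed. The log2 change lay above 0 for 33 members and below 0 for 52, with a median of -0.07, against -0.03 over all genes tested. At an unadjusted p under 0.05 by limma-voom there was 1 member higher, Kcnk13 (background 0.747% of genes higher), and 0 lower (background 0.348%). The groups did not overlap for Kcnk13, higher in T.chuii (background 2.3%), and Kcnk4, lower in T.chuii (background 2.49%). This balance rested on single libraries. Without T.chuii 1, 65 members lay above and 20 below 0 (median 0.28), without DES 2 the counts were 52 and 33 (0.10), and without the 3 libraries that stood apart 56 and 29 (0.19). With the replicate number as a block on the 6 T.chuii and DES libraries, 2 genes of all tested and no member passed. The adjusted p by limma-voom was 0.343 for Kcna7 and 0.375 for Kcnk13. In this fit 6 members had an unadjusted p under 0.05 by limma-voom. The share of all genes under it in this fit is not given here, so that count is not read as a result about the members.

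Kcnk13 (chr12:99963149-100062682, mm10) encodes THIK-1, a leak channel known from microglia. It was at 3.24, 2.6 and 2.61 CPM in T.chuii, 1.73, 1.37 and 1.19 CPM in DES and 2.32, 3.1 and 2.13 CPM in CON. The 3 DES libraries were the lowest of all 9, and T.chuii overlapped CON. The log2 change was 0.98 ± 0.30 (SE) in T.chuii vs DES, with adjusted p = 1.0 by limma-voom, and -0.81 ± 0.30 in DES vs CON, with adjusted p = 1.0. It was 1.01 in T.chuii vs DES and -0.80 in DES vs CON without the 3 libraries that stood apart. The macrophage markers C1qa, C1qb and Csf1r, none of them at 0 in any library, together held 0.00849%, 0.0072% and 0.00603% of reads in T.chuii, 0.00583%, 0.00536% and 0.00532% in DES and 0.0065%, 0.00737% and 0.00804% in CON. The DES libraries were lowest for these markers too, and the part of macrophage content in the Kcnk13 values was not tested. Kcna3, for Kv1.3 of lymphocytes and the other gene of the immune list, was at 1.16, 4.3 and 4.92 CPM in T.chuii, 2.13, 5.7 and 4.28 CPM in DES and 3.46, 2.19 and 4.68 CPM in CON, with overlap of all groups.

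Kcnk4 encodes TRAAK, a leak channel gated by membrane stretch. It was at 0.955, 1.42 and 1.1 CPM in T.chuii, 1.44, 1.58 and 1.74 CPM in DES and 1.76, 1.22 and 1.58 CPM in CON. The T.chuii libraries lay below DES by a narrow margin, with a log2 change of -0.47 ± 0.31 (SE), and overlapped CON. Kcnj16 had a log2 change of -0.88 ± 0.63 in T.chuii vs DES that rested on DES 2. It was at 2.73, 3.64 and 4.18 CPM in T.chuii, 2.37, 18.4 and 5.58 CPM in DES and 4.32, 5.54 and 4.18 CPM in CON, and without DES 2 the log2 change was 0.00, against -1.45 without the 3 libraries that stood apart. Kcnj15, for Kir4.2, was also highest in DES 2, at 8.68 CPM against 5.72 CPM in the next library, as was Kcne3, a partner of epithelial Kcnq1 channels, at 2.86 CPM against 1.44. Muc5ac and Tff1, secreted by conjunctival goblet cells and chosen here after their values were seen, reached 99.9 and 14.7 CPM in DES 2, against at most 32 and 5.35 CPM in the other 8 libraries. Kcnj15 differed from them in CON 1, its next library at 5.72 CPM, where Muc5ac and Tff1 were at 2.37 and 0.285 CPM. The part of conjunctival content in these values was not tested.

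Kcnq1, the epithelial and cardiac pore Kv7.1, and Kcnrg, a regulator of voltage-gated channels, had the other low means in T.chuii vs DES. Both peaked in DES 1, Kcnq1 at 2.15 CPM against 1.35 in the next library and Kcnrg at 0.863 CPM against 0.356. Their log2 changes were -0.88 ± 0.55 and -0.87 ± 0.65 (SE), and -0.47 and -0.21 without DES 1. Without T.chuii 3 that of Kcnq1 was -0.39, and without the 3 libraries that stood apart the values were -0.57 for Kcnq1 and 0.20 for Kcnrg. The span of Kcnq1 overlaps Kcnq1ot1, which was at 60.9 to 128 CPM, and that of Kcnrg overlaps Trim13 and Dleu2.

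DES vs CON asks what scopolamine injection changed. No member changed past an adjusted p of 0.05 by limma-voom, as for 0.0% of all genes tested. The log2 change lay above 0 for 41 members and below 0 for 44, with a median of -0.02, the same as over all genes. This balance too rested on single libraries. Without CON 2, 24 members lay above and 61 below 0 (median -0.19), without DES 1 the counts were 54 and 31 (0.13), and leaving out any other library gave 29 to 53 above. Without the 3 libraries that stood apart the counts were 32 and 53 (median -0.06). At an unadjusted p under 0.05 by limma-voom, Kcnj2 was higher (background 0.597%) and Kcns1 and Kcnk13 were lower (background 0.507%). The groups did not overlap for Kcnh2 and Kcnj12, higher in DES (background 2.0%), and for Kcns1 and Kcnk13, lower in DES (background 1.65%).

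Kcns1 (chr2:164163619-164171113, mm10) encodes Kv9.1, a silent modifier of voltage-gated pores. It was at 1.05, 0.545 and 0.511 CPM in T.chuii, 0.682, 0.59 and 0.58 CPM in DES and 1.14, 2.94 and 1.39 CPM in CON. All 6 libraries of injected mice lay below the 3 CON libraries, and CON 2 was 2.11-fold above the next library. The log2 change was -1.44 ± 0.44 (SE) in DES vs CON (adjusted p = 1.0 by limma-voom) and -1.34 ± 0.44 in T.chuii vs CON (adjusted p = 0.986). Without CON 2, which had the highest share of corneal epithelium markers at 6.71% against 1.14% to 4.51% in the others, these log2 changes were -1.02 and -0.93, and without all 3 libraries that stood apart -1.11 and -1.27. The part of corneal content was not tested. Both comparisons share the CON libraries.

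Kcnh2 was at 7.5, 16.6 and 14.3 CPM in T.chuii, 14.3, 13.3 and 19.4 CPM in DES and 13.2, 8.8 and 10.1 CPM in CON. The lowest DES library was just above the highest CON library, and the log2 change was 0.55 ± 0.32 (SE, adjusted p = 1.0 by limma-voom). Kcne4, which joins Kv1 and Kv7 pores, was at 10.6, 6 and 5.2 CPM in T.chuii, 9.61, 5.49 and 3.81 CPM in DES and 8.42, 11.2 and 8.47 CPM in CON, and DES overlapped CON through DES 1. Kcnk6, for TWIK-2, reached 9.49 CPM in CON 2, against 1.57 to 5.24 CPM in the other 8 libraries, and its log2 change in DES vs CON moved to -0.02 without CON 2 and to -0.23 without the 3 libraries that stood apart, against -0.53 with all. Kcng1, at 0.0525 FPKM, had as few as 5 reads in a library, which leaves its log2 change of -0.61 ± 0.49 (SE) without a direction that could be read.

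T.chuii vs CON sets the alga and the drug together against mice given neither. No member changed past an adjusted p of 0.05 by limma-voom, as for 0.0% of all genes tested. The log2 change lay above 0 for 35 members and below 0 for 50, with a median of -0.10, against -0.04 over all genes. Without T.chuii 1, 66 members lay above and 19 below 0 (median 0.30), without CON 2 the counts were 18 and 67 (-0.28), and without the 3 libraries that stood apart 50 and 35 (0.06). At an unadjusted p under 0.05 by limma-voom, 4 members were higher, Kcnj12, Kcnj2, Kcna7 and Kcne1 (background 3.15% of genes), and 1 was lower, Kcns1 (background 1.13%). The groups did not overlap for Kcnj12, Kcnj2, Kcnj11 and Kcnn3, higher in T.chuii (4 of 85, or near the background of 5.45%), and for Kcnj15 and Kcns1, lower in T.chuii (background 2.97%).

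Kcnj12 and Kcnj2 encode Kir2.2 and Kir2.1, strong inward rectifiers that hold the resting voltage of muscle fibres. They lie at chr11:61022564-61073269 and chr11:111066164-111076825 (mm10). Kcnj12 was at 16, 26.1 and 8.23 CPM in T.chuii, 20, 5.43 and 7.15 CPM in DES and 5.2, 3.44 and 4.68 CPM in CON. The 3 CON libraries were the lowest of all 9, and T.chuii overlapped DES. Its log2 change was 1.78 ± 0.55 (SE) in T.chuii vs CON (adjusted p = 0.986 by limma-voom), 1.07 ± 0.57 in DES vs CON and 0.70 ± 0.51 in T.chuii vs DES. Without the 3 libraries that stood apart these were 1.54, 0.31 and 1.23. Without DES 1 the DES vs CON change of Kcnj12 was 0.50, and leaving out single libraries gave 0.30 to 1.28 in T.chuii vs DES. Kcnj2 was at 10.9, 6.59 and 4.94 CPM in T.chuii, 8.02, 6.37 and 3.51 CPM in DES and 3.91, 1.65 and 3.22 CPM in CON, with DES overlapping both other groups. Its log2 change was 1.36 ± 0.45 in T.chuii vs CON (adjusted p = 0.986 by limma-voom) and 0.67 without the 3 libraries that stood apart, and in DES vs CON 1.07 with and 0.45 without them. Kcnj2 lies 38.2 kb from Kcnj16 on chromosome 11, whose peak in DES 2 it did not share.

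Kcna7 encodes Kv1.7, a pore of skeletal muscle and heart. It was at 4.82, 4.43 and 1.15 CPM in T.chuii, 3.49, 1.38 and 0.497 CPM in DES and 1.47, 0.224 and 0.805 CPM in CON, with overlap of all groups. Its log2 change was 2.17 ± 0.85 (SE) in T.chuii vs CON (adjusted p = 0.986 by limma-voom) and 1.04 without the 3 libraries, while its log2 change in DES vs CON was 1.12 ± 0.89 with them and -0.28 without. Kcnj11 encodes Kir6.2, the pore of channels closed by ATP in muscle and endocrine cells. It was at 2.82, 2.62 and 1.12 CPM in T.chuii, 2.17, 1.16 and 0.359 CPM in DES and 0.996, 0.706 and 0.822 CPM in CON, T.chuii lying above CON. The log2 change of Kcnj11 was 1.26 in T.chuii vs CON and 0.27 in DES vs CON, and 0.89 and -0.38 without the 3 libraries. Kcna7, Kcnj11 and Kcnj12 formed the striated muscle list, whose 3 genes had a log2 change above 0 in each of the 3 comparisons, with medians of 0.99 in T.chuii vs DES, 1.07 in DES vs CON and 1.78 in T.chuii vs CON, and 0 past the adjusted threshold by limma-voom. Without the 3 libraries 1 gene lay above and 2 below 0 in DES vs CON, with a median of -0.28, while all 3 lay above 0 in T.chuii vs DES (1.27) and T.chuii vs CON (1.04). In DES vs CON the median was 0.36 without CON 2 and 0.44 without DES 1, where 1 gene lay below 0. In T.chuii vs DES it ran from 0.40, without DES 3, to 1.55, without DES 1.

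The fast skeletal muscle markers Acta1, Ckm, Tnni2, Tnnt3 and Mylpf, none at 0 in any library, held 0.946%, 0.48% and 0.216% of reads in T.chuii, 0.479%, 0.15% and 0.0855% in DES and 0.141%, 0.0459% and 0.105% in CON. T.chuii 1, T.chuii 2 and DES 1 were the 3 highest libraries for these markers and for Kcnj12, Kcnj2, Kcna7 and Kcnj11. The part of muscle content in these values was not tested.

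Kcne1 encodes minK, the partner of Kcnq1. It was at 2.47, 1.03 and 0.378 CPM in T.chuii, 1.22, 0.27 and 1.21 CPM in DES and 0.403, 0.396 and 0.101 CPM in CON, with 6 reads in its lowest library. All groups overlapped, and the log2 change of 1.92 ± 0.85 (SE) in T.chuii vs CON (adjusted p = 0.986 by limma-voom) was 1.27 without T.chuii 1 and 1.26 without CON 3. Kcne1 lies 47.9 kb from Kcne2 on chromosome 16. T.chuii 1 was the highest library for Kcne1 and the lowest for Kcne2.

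Kcnj15 was at 1.93, 3.91 and 2.33 CPM in T.chuii, 1.38, 8.68 and 4.31 CPM in DES and 5.72, 5.11 and 4.51 CPM in CON, and T.chuii lay below CON with a log2 change of -0.96 ± 0.57 (SE, adjusted p = 0.986 by limma-voom). DES 2 and the CON libraries were the highest for Kcnj15 and the lowest in lens markers, at 0.0194% to 0.0381% of reads. The part of lens content was not tested and cannot be told apart from group in T.chuii vs CON. Kcnn3, for a channel of small conductance, was at 1.16, 1.03 and 1.13 CPM in T.chuii, 1.06, 0.556 and 0.69 CPM in DES and 0.569, 0.93 and 0.906 CPM in CON. Its T.chuii libraries lay above CON and overlapped DES. Kcnk7 and Kcnv1, with log2 changes of -0.96 ± 0.48 and -0.92 ± 0.54 (SE) in T.chuii vs CON, were highest in CON 2 at 4.75 and 27.5 CPM, and without it these changes were -0.50 and -0.38. Without CON 2, DES 1 and T.chuii 1 together they were -0.94 and -0.78, and a single T.chuii library also moved each, to -0.56 for Kcnk7 without T.chuii 3 and to -0.47 for Kcnv1 without T.chuii 2.

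**Figure D4:**
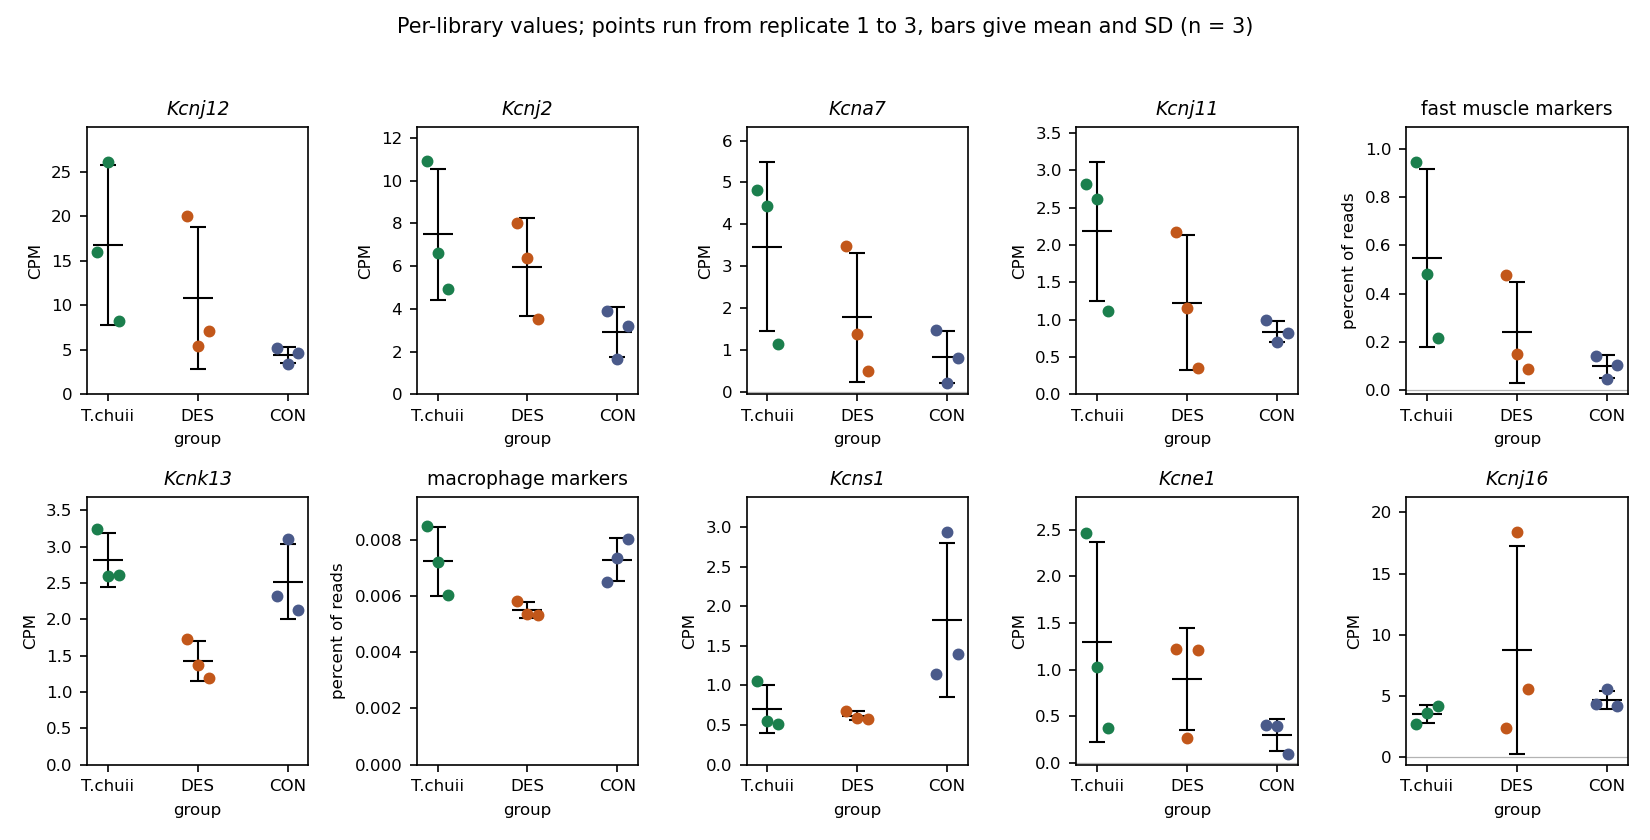
CPM of 8 members, and the percentage of reads in fast skeletal muscle and macrophage markers, in each library (points) with mean and SD (n = 3) for T.chuii, DES and CON. The CON libraries are low for Kcnj12 and Kcnj2, the DES libraries are lowest for Kcnk13 and macrophage markers, and DES 2 alone is high for Kcnj16.

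By class, all 10 silent modifiers had a log2 change below 0 in T.chuii vs CON, with a median of -0.38 and 0 past the adjusted threshold by limma-voom. Their medians were -0.17 in T.chuii vs DES and -0.17 in DES vs CON. Without T.chuii 1 the T.chuii vs CON count was 6 above and 4 below 0, with a median of 0.02, and without the 3 libraries that stood apart it was 5 and 5. Of the 10 Kcnk genes 2 lay above and 8 below 0 in T.chuii vs CON (median -0.30), with counts from 1 and 9 to 5 and 5 when single libraries were left out, and of the 8 calcium- or sodium-activated channels 4 lay above and 4 below (median 0.04). The 27 voltage-gated pores had medians of -0.03 in T.chuii vs DES, 0.04 in DES vs CON and 0.05 in T.chuii vs CON, each resting on which libraries were in. Without T.chuii 1, 24 of the 27 lay above 0 in T.chuii vs DES (median 0.39) and 25 in T.chuii vs CON (0.38). Without CON 2, 6 of the 27 lay above 0 in DES vs CON (median -0.27) and 6 in T.chuii vs CON (-0.37). Without the 3 libraries that stood apart the medians were 0.25 in T.chuii vs DES, -0.15 in DES vs CON and 0.11 in T.chuii vs CON. Of the 6 epithelial members (Kcnq1, Kcne3, Kcnn4, Kcnk1, Kcnk5 and Kcnk6), 0 lay above 0 in T.chuii vs DES, 2 in DES vs CON and 1 in T.chuii vs CON. In DES vs CON the epithelial count was 5 without CON 2 and 3 without the 3 libraries, and in T.chuii vs DES it was 4 without T.chuii 2. The 7 neuronal members, among them Kcna1, Kcna2 and Kcnc1, had a median of -0.11 in each comparison. Without the 3 libraries all 7 lay above 0 in T.chuii vs DES (0.44) and below 0 in DES vs CON (-0.44), and the T.chuii vs CON median was -0.01. Without T.chuii 1 all 7 lay above 0 in T.chuii vs CON (0.26), and without CON 2 all 7 lay below (-0.45). The 4 members listed for smooth muscle and pericytes (Kcnj8, Kcnma1, Kcnmb1 and Kcna5) had medians of 0.08, 0.11 and 0.27 in T.chuii vs DES, DES vs CON and T.chuii vs CON, and 0.32, 0.00 and 0.23 without the 3 libraries. They did not move together across libraries. Kcna5 was lowest in T.chuii 1, DES 1 and CON 2, the 3 libraries highest in smooth muscle markers, and Kcnma1 was lowest in CON 2. Kcnj8 was highest in T.chuii 1 and DES 1, and Kcnmb1 in DES 1. None of these members passed the adjusted threshold.

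**Figure D5:**
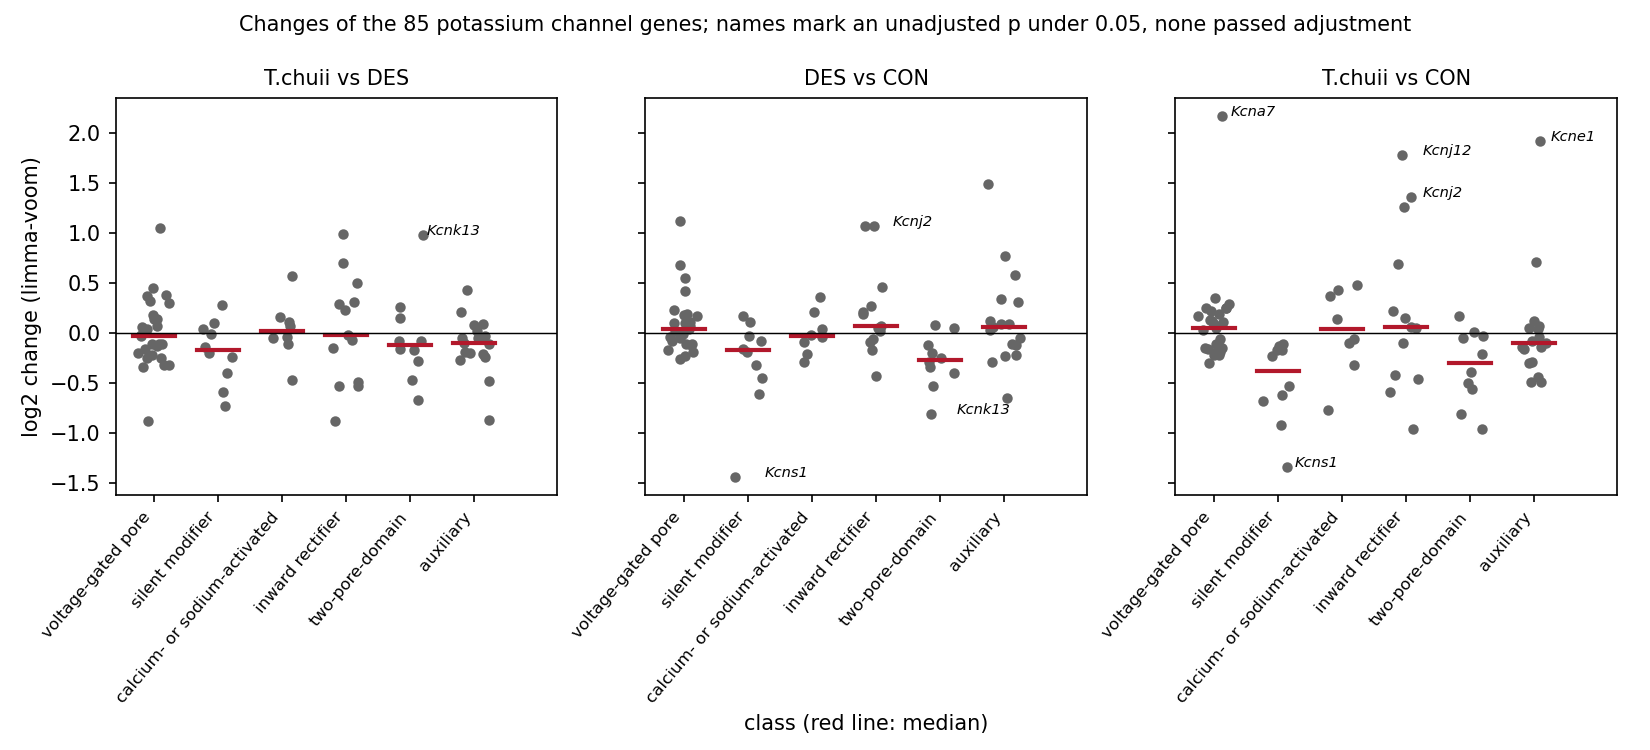
Log2 change by limma-voom of each of the 85 members (points) in the 3 comparisons, by class, with the class median as a red line. Medians lay between -0.38 and 0.07, and the named genes are those with an unadjusted p under 0.05.

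Partner genes outside the rule were read from a list of 18. In T.chuii vs DES 8 had a log2 change above 0 and 10 below, in DES vs CON 13 and 5, and in T.chuii vs CON 10 and 8, with 0 past the adjusted threshold by limma-voom in each. Without the 3 libraries that stood apart 13, 11 and 15 of the 18 lay above 0 in these comparisons, and without T.chuii 1 16 did in T.chuii vs DES and 17 in T.chuii vs CON. In 8 of the 18 the libraries T.chuii 1, DES 1 and CON 2 all lay below the other 6, and in 0 above. Among these 8 was Dpp6, a membrane partner of Kv4 pores, at 8.13, 29.6 and 35.9 CPM in T.chuii, 16.9, 39.8 and 27.1 CPM in DES and 33.9, 18 and 28.9 CPM in CON. Abcc9, the sulfonylurea receptor that joins the pore Kir6.1 of Kcnj8 in vascular muscle, was at 14.1, 6.41 and 4.12 CPM in T.chuii, 8.26, 3.79 and 2.87 CPM in DES and 4.65, 1.98 and 2.65 CPM in CON. Kcnj8 was at 16.5, 9.69 and 5.05 CPM in T.chuii, 11, 5.66 and 4.22 CPM in DES and 6.07, 4.82 and 6.24 CPM in CON. Both were highest in T.chuii 1 and overlapped between all groups, with log2 changes in T.chuii vs CON of 1.31 ± 0.54 (SE) for Abcc9 and 0.69 ± 0.46 for Kcnj8, and 0.56 and 0.16 without the 3 libraries. Lrrc52, an auxiliary subunit of the large-conductance channel, was at 8.04, 2.4 and 1.25 CPM in T.chuii, 3.85, 0.64 and 0.193 CPM in DES and 0.332, 0.293 and 0.403 CPM in CON. T.chuii lay above CON, and the log2 change of 3.03 ± 0.97 (SE) had an adjusted p = 0.986 by limma-voom and was 2.17 without the 3 libraries. Its 3 highest libraries were T.chuii 1, DES 1 and T.chuii 2. They were also the 3 highest for Abcc9, for Kcnj8 and for the fast skeletal muscle markers given above. The smooth muscle markers Myh11, Acta2, Cnn1 and Tagln were instead highest in CON 2, at 0.0521% of reads, where Abcc9 was at its lowest and Kcnj8 at 4.82 CPM. T.chuii 1, DES 1 and T.chuii 2 came next for smooth muscle markers, at 0.0471%, 0.0431% and 0.0416%. The part of muscle content in these values was not tested.

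The precision behind these comparisons was lower for the members than for the genes at large. The median SE of a log2 change was 0.46 over the members and 0.35 over all genes tested, in each comparison. Leaving out the low-rod libraries or adding the corneal-to-rod ratio as a covariate brought no member past the adjusted threshold, and the smallest adjusted p by limma of any member in any setting was 0.164.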

How the data were processed

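Per the labels' protocols, eyeball RNA was extracted with TRIzol and prepared with the TruSeq stranded kit for mRNA. The submitters' processing notes name StringTie 2.1.3b, Bowtie2 2.3.4.1, HISAT2 2.1.0, Trimmomatic 0.38 and FastQC 0.11.7, and the build mm10. The counting step and its strand setting are not given in the sources used here. The deposited tables hold the authors' read count and FPKM of each gene, per the file headers. Rows vary in width, so both were read from the right end.

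A gene was tested if at least 3 libraries reached 10 reads, after scaling to the median library, and its reads summed to at least 15, which left 21287 of 22587 genes and all 85 members. The test was limma-voom on the counts (R 4.3.3, limma 3.58.1), with libraries scaled by trimmed means of M-values. A single two-sided fit of 3 group means used all 9 libraries, which left 6 residual degrees of freedom, and p-values were adjusted over all genes by Benjamini-Hochberg, at 0.05. CPM is scaled by the same factors. The script was tested on simulated counts. Promoters and gene positions are from RefSeq tables of GRCm38.p6, and figures were drawn with matplotlib 3.10.9 in Python 3.11.15. No 2 libraries agreed within sampling noise (lowest chi-square per degree of freedom 32.7).

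The members, classes, tissue lists and partner genes were chosen with earlier results of these data known. Named genes were, in each comparison, the 5 members with the smallest p in each direction, the 3 with the highest FPKM of each class, and the members of the tissue lists. Others named were chosen after their values were seen. Some genes that meet the rule are not reported here by name. Titles number the replicates 1 to 3. Same-numbered T.chuii and DES libraries deviated together (correlations of 0.635, 0.411 and 0.197). The main fit took no pairs, and only the replicate block of the alternative settings treated these numbers as pairs, from the data alone. Differently numbered T.chuii and DES libraries gave -0.661 to 0.552, the highest being T.chuii 3 with DES 2, and the 1st pair is made of 2 libraries poor in rod reads. Headers carry other numbers. Same-numbered T.chuii and CON libraries (-0.361, -0.421 and 0.345) and DES and CON libraries (-0.382, -0.28 and 0.324) did not all deviate together. Alternatives covered scaling, filter, FPKM values, library weights, a tissue covariate, the replicate block and leaving out libraries.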

Additional observations from a re-analysis of the deposited data

How the results depend on the processing

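In 20 alternative settings, 786 of 812 recomputed results were classed as the same, and no member passed an adjusted p of 0.05 in any. A log2 change of a named gene was the same if it kept its direction and its side of the threshold. As no member passed in any setting, only a turn of direction could change that class. The 786 therefore does not measure how steady the sizes of the changes were. A count was the same within a set fold limit. A median was the same if it moved by under 0.33, the spread between libraries of a group, even where its sign turned. Over all genes, against 0 in each comparison, 2 passed in T.chuii vs DES with the replicate block on only the T.chuii and DES libraries (chosen after seeing the data), 1 in T.chuii vs DES and 1 in T.chuii vs CON without CON 2, DES 1 and T.chuii 1, and 2 with library quality weights and 12 with only the 2 groups compared in T.chuii vs CON. Leaving out single libraries gave 0 to 0 in T.chuii vs DES, 0 to 15 in DES vs CON and 0 to 17 in T.chuii vs CON, the 15 and the 17 both without DES 2. The replicate block over all 9 libraries gave 0 genes in each comparison and changed no call. Without CON 2, DES 1 and T.chuii 1 the log2 change of Kcnrg in T.chuii vs DES was 0.20 and that of Kcna7 in DES vs CON was -0.28, both reversed. The cause was not tested.

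The number of members at an unadjusted p under 0.05 ran from 1 to 8 in T.chuii vs DES, 1 to 7 in DES vs CON and 2 to 18 in T.chuii vs CON, the 18 with the corneal-to-rod ratio as a covariate. The shares of all genes in the same settings are not given here, so these counts are not read as a result about the members. Limits: members under 1 FPKM rest on few reads, CON and DES differ in injection as well as drug, and the members' median SE of 0.46 limits what 3 libraries a group can show.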
